A study of Mus musculus with 6 samples.

Results

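Small intestinal enterocytes carry a well-known set of digestive and lipid-handling proteins, and 10 of the genes that encode them are described here in the colon. The 10 were chosen by name: Fabp1, Fabp2, Fabp6, Rbp2, Sis, Lct, Alpi, Mttp, Treh and Mgam. All 10 were found among the 55487 genes counted in each of 6 RNA-seq libraries. The mutant libraries (1 to 3) came from M14(f/f);Villin-Cre mice, in which both copies of M14 are flanked by loxP sites and Cre recombinase is driven by the Villin promoter. The control libraries (1 to 3) came from M14(f/f) mice, which carry the same flanked alleles without Cre. All mice were C57BL/6 and 4 weeks old, and polyadenylated RNA was taken from isolated crypt cells of the colon. M14 is read here as Mettl14, a core subunit of the complex that writes N6-methyladenosine on messenger RNA. Villin-Cre is active in the epithelium along the gut, and since the controls carry no Cre, effects of Cre itself and of losing Mettl14 cannot be told apart.

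Enterocytes of the small intestine split dietary sugars at the brush border, take up fatty acids, retinol and bile acids, and pack lipid into chylomicrons for export. Small cytosolic carriers of the fatty acid binding protein family move hydrophobic cargo inside the cell, and membrane-bound disaccharidases stand on its surface. Most of these genes are far more active in the small intestine than in the colon, where absorptive cells mainly take up water, salt and short-chain fatty acids, so that their messages serve as a sign of regional identity.

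Library totals were 24181631 to 34842591 counts in mutants and 32165546 to 35183636 counts in controls. Mettl14 itself was lower in mutants, with 14.0, 13.8 and 10.5 CPM (counts scaled to library size) in mutant 1, 2 and 3, against 26.2, 20.9 and 22.0 CPM in control 1, 2 and 3 (log2 fold change -0.85, adjusted p = 6.22e-04 by edgeR). The epithelial markers were abundant in every library, with a summed level of 9050 to 11200 CPM in mutants and 12000 to 13500 CPM in controls. Colonocyte markers summed to 5160 to 6310 CPM in mutants and 11600 to 12900 CPM in controls. The most abundant of these 8 genes were Car1, at 2076 CPM in mutants and 5613 CPM in controls, and Ceacam1, at 1892 and 3709 CPM. Of the 8, 4 fell and 4 did not pass. Of 9 markers of Paneth cells, which belong to the small intestine, the defensins Defa21 and Defa22 had no count in any library. Defa24 stood at 0.0387, 0.040 and 0 CPM in mutant 1, 2 and 3, against 0.285, 0 and 0.419 CPM in control 1, 2 and 3, and Defa17, Defa30 and Mptx2 reached at most 0.114 CPM in any library. Lyz1, Itln1 and Mmp7 were found in every library, and Lyz1 was called higher, at 4.31 ± 0.700 CPM in mutants and 1.37 ± 0.217 CPM in controls (SD, n = 3 each, adjusted p = 2.36e-04 by edgeR). The whole list summed to 9.96 to 10.6 CPM in mutants and 4.6 to 9.02 CPM in controls, and its part in the values below was not tested. Macrophage and dendritic cell markers rose in mutants for 10 of 12 genes and fell for 1, with sums of 43.7 to 66.7 CPM in mutants and 18.8 to 25.3 CPM in controls. Of the 10, Fcgr1 passed the count filter through the mutant libraries alone. Mutant 1 and mutant 2 stood apart in sex-linked genes, and the labels do not mention sex. Xist had 652 CPM in mutant 1, 53.1 CPM in mutant 2 and 1.5 CPM in mutant 3, against 1.28 to 1.77 CPM in controls. The Y-linked gene Ddx3y had 0.541 CPM in mutant 1 and 38.0 and 44.2 CPM in mutant 2 and 3, against 53.6 to 58.4 CPM in controls. Mutant 2 thus held both kinds of transcript, and for the 10 genes the values without mutant 1 and mutant 2 are given where they change a call.

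The 10 genes did not move as a block. Fabp6 and Rbp2 rose in mutants, Fabp1, Mttp, Sis, Mgam and Lct fell, and Fabp2, Treh and Alpi did not pass the test (edgeR quasi-likelihood test, Benjamini-Hochberg adjusted over 18539 genes, threshold 0.05). Over all tested genes 46.3% were called, 23.5% as higher and 22.8% as lower, so a call by itself does not set these genes apart. For 6 of the 10 genes every mutant library lay on one side of every control, 1 above and 5 below, against 56.9% of all tested genes, 28.7% above and 28.2% below. The median log2 fold change of the 10 was -0.47, beside 0.01 over all tested genes, and the median size of change without regard to sign was 1.05, beside 0.41. All 10 passed the filter on low counts, but Fabp1 and Lct did so through the control libraries alone, so a lower value in mutants was built into their being tested. Both count among the 5 genes below, pull the median down and raise the median size of change. With at least 1 CPM asked in 3 libraries, Fabp1, Lct and Treh were not tested, and 3 genes were called lower. Without mutant 1 and mutant 2, 2 of the genes were called higher and 4 lower, the mutant left being assumed to vary like the controls. In bulk RNA a smaller number of cells that hold a transcript and less of it per cell cannot be told apart.

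**Figure D1:**
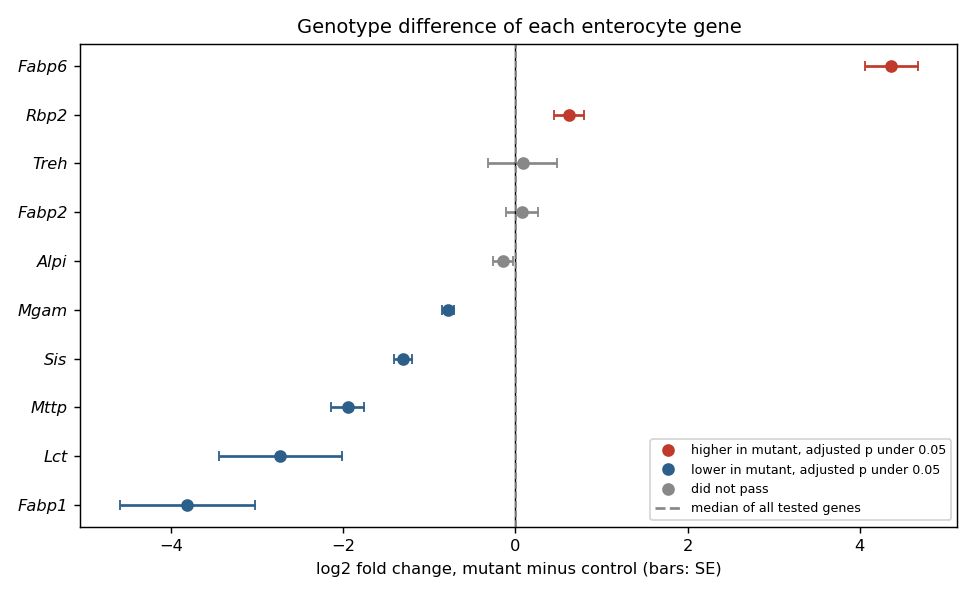
Log2 fold change, mutant minus control, of each of the 10 genes (points) with its SE (bars); colours show the call by edgeR and the dashed line is the median of all tested genes. Fabp6 stands alone at 4.37, and the 5 genes called lower run between -0.79 (Mgam) and -3.81 (Fabp1).

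Per kilobase of exon the 10 genes covered a wide span of levels. Fabp2 was the most abundant, at 513 ± 37.1 CPM per kb in mutants and 487 ± 155 CPM per kb in controls (SD, n = 3 each, as for all means below). In mutants it was followed by Fabp6 (87.7 ± 36.3 CPM per kb), Mgam (29.4 ± 0.581), Rbp2 (24.7 ± 5.41), Alpi (23.7 ± 4.09), Sis (1.75 ± 0.206), Mttp (0.359 ± 0.0335), Treh (0.298 ± 0.0501), Fabp1 (0.119 ± 0.110) and Lct (0.0314 ± 0.0170). In controls Mgam (50.7 ± 0.79 CPM per kb) came second, and then Alpi (26.3 ± 1.82), Rbp2 (16.1 ± 2.90), Sis (4.37 ± 0.324), Fabp6 (4.27 ± 0.998), Fabp1 (1.57 ± 0.871), Mttp (1.38 ± 0.274), Treh (0.276 ± 0.131) and Lct (0.214 ± 0.172). Neighbours whose single-library ranges overlapped were Rbp2 and Alpi, Mttp and Treh, and Fabp1 and Lct in mutants, and Sis and Fabp6, Fabp1 and Mttp, and Treh and Lct in controls. Fabp6 was the second of the 10 in mutants and the sixth in controls. By counts, Fabp2 and Mgam made up most of the set: Fabp2 held 49.1% to 51.2% of the summed CPM in mutants and 31.2% to 46.2% in controls, and Mgam held 33.4% to 38.7% in mutants and 44.1% to 58.4% in controls.

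**Figure D2:**
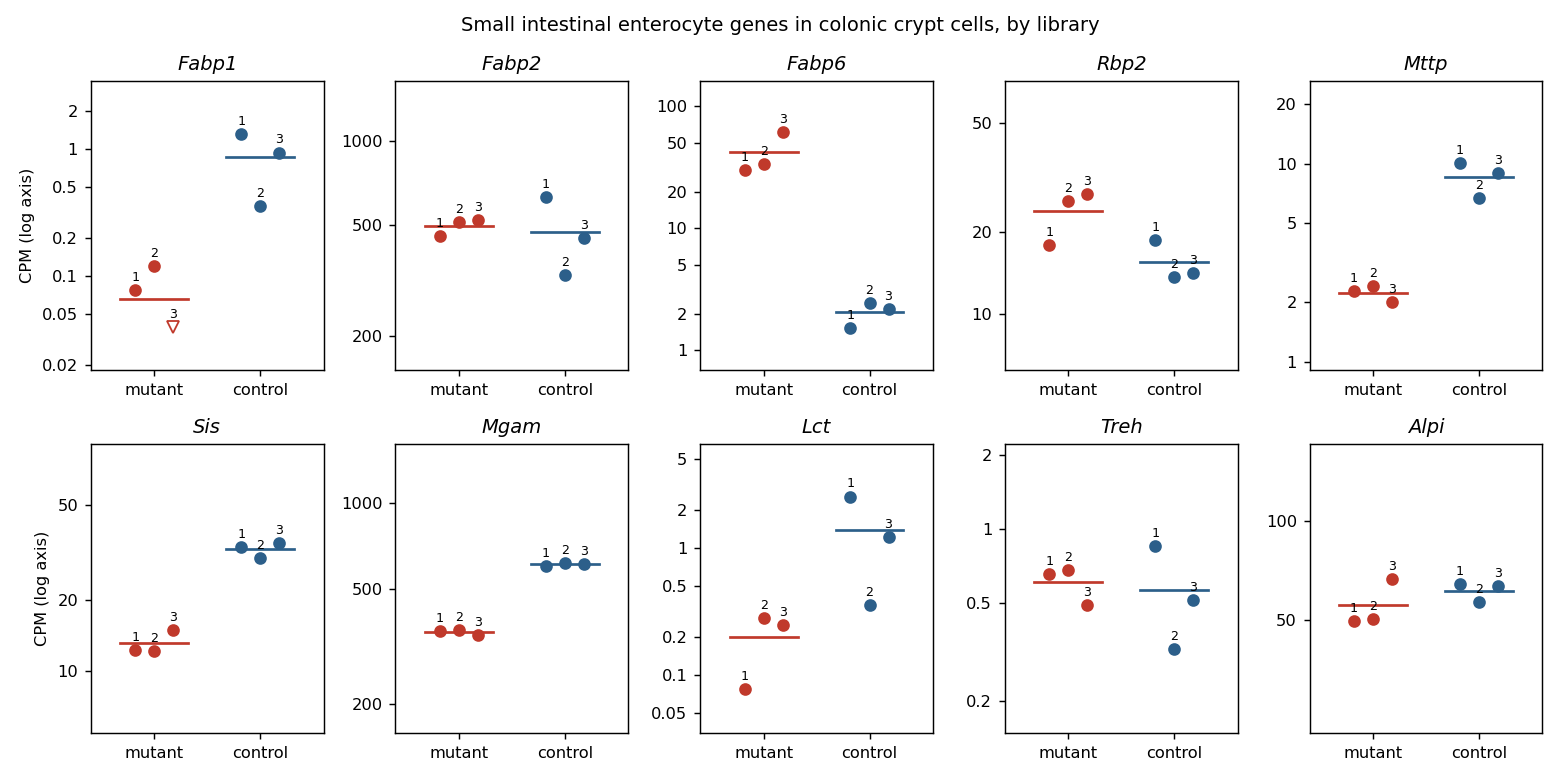
CPM of each of the 10 genes in each library (log axis, scale differs between panels); points are libraries, numbered by replicate, lines are group means, and an open triangle is a library with no count, drawn at a fixed height. The groups do not overlap for Fabp6, which was higher in mutants, nor for Fabp1, Mttp, Sis, Mgam and Lct, which were lower.

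Fabp6 encodes the ileal bile acid carrier, which binds bile acids inside enterocytes of the distal small intestine and is a classical target of the bile acid receptor FXR. The gene lies on the minus strand of chromosome 11 (43596049 to 43601540 on GRCm38). It had 30.1, 33.9 and 62.0 CPM in mutant 1, 2 and 3, against 1.51, 2.43 and 2.19 CPM in control 1, 2 and 3. The groups were far apart, and mutant 3 was the highest library. The means were 42.0 ± 17.4 CPM in mutants and 2.05 ± 0.478 CPM in controls, a 20.6-fold difference (log2 fold change 4.37, SE 0.30, adjusted p = 5.16e-06 by edgeR). By size of rise Fabp6 ranked 141 among the 18539 tested genes. It was called higher in all 13 alternative settings, with log2 fold changes of 3.97 to 4.89. Over the 6 libraries the genes nearest to Fabp6 in profile, among those with a mean of at least 5 CPM, included Chit1 and Osmr. They lay at a root mean square distance of 0.234 and 0.246 on the log2 scale, measured from each gene's control mean. Osmr, for example, had 32.0, 51.3 and 63.9 CPM in mutant 1, 2 and 3, against 1.40, 2.73 and 2.23 CPM in control 1, 2 and 3.

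The promoter windows of both genes that rose are shown because regulation of Fabp6 and Rbp2 by nuclear receptors is well known. They are the 250 bases before the RefSeq start on GRCm38.p6, at chr11:43601563-43601812 on the minus strand for Fabp6 and chr9:98490287-98490536 on the plus strand for Rbp2. Capitals mark matches, on either strand, to 4 short motifs. These were AGGTNA followed after 1 base by TNACCT (an inverted repeat bound by nuclear receptors such as FXR, the same on both strands), CAAAGNNCA or TGNNCTTTG (part of a direct repeat bound by HNF4 and RXR partners), GTTAAT or ATTAAC (one arm of an HNF1 site), and TTTAT or ATAAA (the CDX core, which a TATA box can also hold). The letters were set with these promoters in view.

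Fabp6: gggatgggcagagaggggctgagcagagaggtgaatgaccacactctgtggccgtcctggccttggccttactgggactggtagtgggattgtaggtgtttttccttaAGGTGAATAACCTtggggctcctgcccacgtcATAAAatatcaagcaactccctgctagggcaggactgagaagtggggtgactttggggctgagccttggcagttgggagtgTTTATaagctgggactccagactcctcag

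Rbp2: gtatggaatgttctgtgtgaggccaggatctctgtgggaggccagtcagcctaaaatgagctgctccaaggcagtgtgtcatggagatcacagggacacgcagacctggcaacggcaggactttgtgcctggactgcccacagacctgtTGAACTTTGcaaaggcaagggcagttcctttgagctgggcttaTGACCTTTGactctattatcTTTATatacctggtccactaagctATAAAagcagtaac

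The inverted repeat was found at position -142 from the start of Fabp6. Of 32851 RefSeq promoter windows of this length 6 held it (0.0183%), and Fabp6 was the one of the 10 genes among them. The other tested gene that held it, Dnah8, was called lower in mutants (log2 fold change -1.87 by edgeR). The direct repeat letters stood at positions -101 and -58 from the start of Rbp2, and 5.49% of all windows held them. They were also in the windows of Fabp2, Alpi and Treh. A match is a description of letters and says nothing of binding. The letters were set with these promoters in view, so the matches in Fabp6 and Rbp2 were given in advance. How few windows hold them therefore measures nothing about either gene. The Rbp2 window lies inside the gene as the files annotate it, in an intron, since the annotation has an earlier start as well.

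The other genes of bile acid handling went both ways. Of 10 listed genes 8 were tested, of which 2 rose and 4 fell, with a median log2 fold change of -0.66. Slc10a2, the apical transporter that brings bile acids into the cell, had 170, 128 and 111 CPM in mutant 1, 2 and 3, against 215, 434 and 330 CPM in control 1, 2 and 3. The groups did not overlap, and it fell in mutants (log2 fold change -1.26, SE 0.23, adjusted p = 0.00176 by edgeR). The basolateral exporter is a pair of subunits, and these went in opposite directions. Slc51a averaged 43.6 ± 6.58 CPM in mutants and 75.8 ± 0.943 CPM in controls, and fell by 0.80 on the log2 scale (adjusted p = 1.76e-04 by edgeR). Slc51b averaged 79.8 ± 11.2 CPM in mutants and 58.2 ± 9.26 CPM in controls, and rose by 0.46 on the log2 scale (adjusted p = 0.0154 by edgeR). That rise was narrow: mutant 1, at 68.9 CPM, lay just above control 2, at 68.8 CPM. The call of Slc51b as higher was lost without mutant 3. Nr1h4, which encodes FXR, fell to 83.8 ± 7.57 CPM in mutants, against 148 ± 20.7 CPM in controls. Vdr, the vitamin D receptor, which also senses secondary bile acids, fell by 1.43 on the log2 scale. Fgf15, the hormone gene that FXR drives in the ileum, was called higher (adjusted p = 0.0100 by edgeR) but lay near the detection floor, at 0.309, 0.32 and 0.328 CPM in mutant 1, 2 and 3, against 0.0856, 0 and 0.0645 CPM in control 1, 2 and 3. A count of 0 allows up to 0.0853 CPM (3 counts) in control 2, by counting error alone. Its control libraries lay under the count filter, so a higher value in mutants was built into its being tested. The 2 calls of higher genes became 3 with DESeq2 and with no filter on low counts, 0 without mutant 3 and 1 without control 1 or without control 3.

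**Figure D3:**
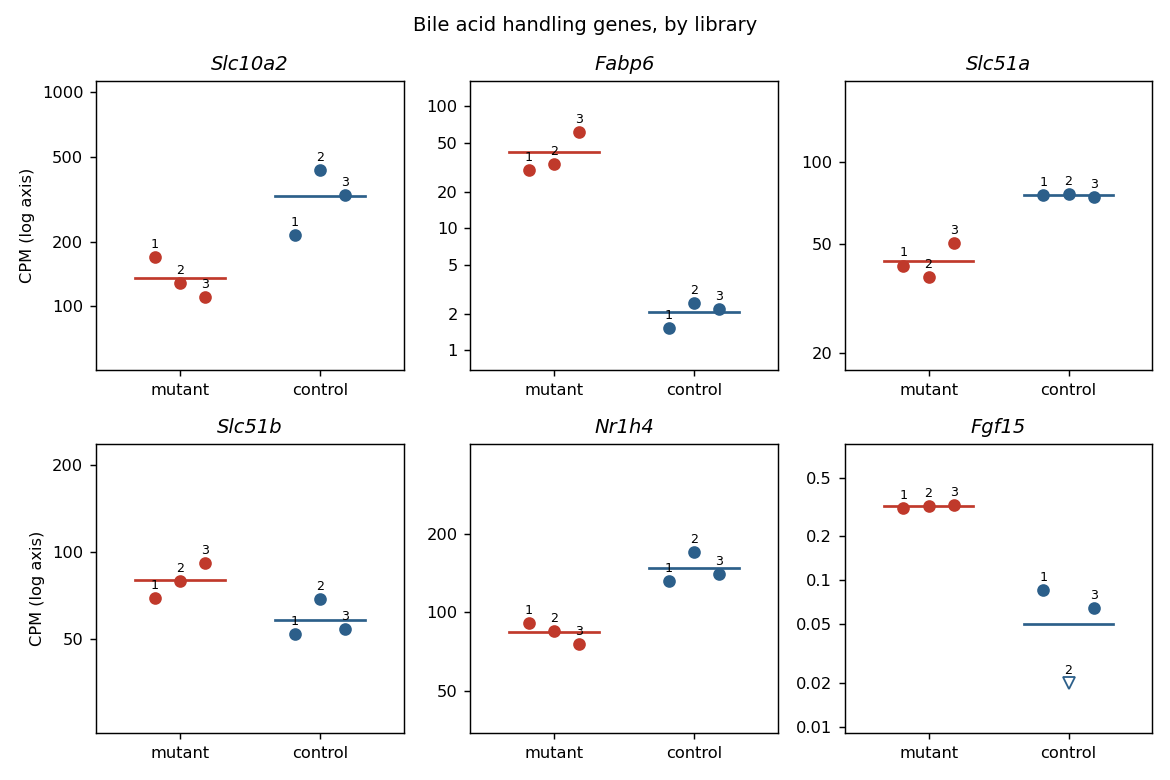
CPM of 6 genes of bile acid handling in each library (log axis, scale differs between panels); points are libraries, numbered by replicate, lines are group means, and the open triangle is a library with no count, drawn at a fixed height. Fabp6, Slc51b and Fgf15 were higher in mutants, whereas Slc10a2, Slc51a and Nr1h4 were lower.

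The ratio of Fabp6 to Slc10a2 within a library, taken per kilobase, does not depend on how libraries are scaled. On the log2 scale it was 0.62, 1.20 and 2.28 in mutant 1, 2 and 3, against -4.04, -4.36 and -4.12 in control 1, 2 and 3. Per kilobase the carrier thus stood above the transporter in each mutant library, and the reverse held in each control library. In CPM, not divided by length, Fabp6 was below Slc10a2 in every library, at 62.0 against 111 CPM in mutant 3. Which of them is higher in mutants therefore depends on dividing by exon length. The mean log2 ratios were 1.37 ± 0.84 in mutants and -4.17 ± 0.17 in controls. The difference was 5.54 (exact permutation test, 2-sided, p = 0.1, adjusted p = 0.125 over 5 ratios). With 3 libraries against 3, 0.1 is the smallest p that this test can give.

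Rbp2 encodes the cellular retinol-binding protein of enterocytes, which holds newly absorbed retinol for esterification. It had 17.8, 25.9 and 27.5 CPM in mutant 1, 2 and 3, against 18.7, 13.6 and 14.1 CPM in control 1, 2 and 3. Mutant 1 lay below control 1, so the groups overlapped. Rbp2 passed as higher by 0.62 on the log2 scale (SE 0.17, adjusted p = 0.0152 by edgeR), and the call rests on single libraries: it was lost without mutant 2 (adjusted p = 0.0513), without mutant 3 (0.0613), without control 2 (0.0585) and without control 3 (0.0635), with log2 fold changes of 0.50 to 0.55.

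Among 20 other genes of retinoid handling 17 were tested, of which 3 rose and 7 fell, with a median log2 fold change of -0.02. Lrat, the enzyme that esterifies the retinol held by Rbp2, fell to 2.33 ± 0.269 CPM in mutants, against 8.43 ± 2.16 CPM in controls (log2 fold change -1.86, SE 0.21, adjusted p = 9.34e-05 by edgeR). Rdh10, a retinol dehydrogenase, rose to 40.1 ± 4.56 CPM in mutants, against 20.8 ± 1.02 CPM in controls. Rarb, a retinoic acid receptor whose gene is itself induced by retinoic acid, had 5.37, 4.80 and 4.87 CPM in mutant 1, 2 and 3, against 0.599, 0.237 and 0.516 CPM in control 1, 2 and 3. It showed the largest change of the list (log2 fold change 3.46, SE 0.29, adjusted p = 1.56e-05 by edgeR). The number of genes that fell was 4 without control 2, without control 3 and with the replicate number as a block.

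Fabp2 and Fabp1 encode the intestinal and the liver-type fatty acid binding proteins, both abundant in enterocytes of the proximal small intestine. Fabp2 had 454, 511 and 520 CPM in mutant 1, 2 and 3, against 630, 332 and 448 CPM in control 1, 2 and 3. The mutant libraries all lay within the range of the controls, and the difference on the log2 scale was 0.08 (SE 0.19, adjusted p = 0.770 by edgeR). Without control 2 its sign turned (-0.13). Fabp1, by contrast, was barely present, with 2, 3 and 0 counts in mutant 1, 2 and 3, against 46, 12 and 29 counts in control 1, 2 and 3. The groups did not overlap, and Fabp1 fell (log2 fold change -3.81, SE 0.78, adjusted p = 0.00304 by edgeR). Counts pooled over libraries, 5 in mutants and 87 in controls, give a ratio of 0.0656 with an exact 95% interval of 0.0208 to 0.159 that covers counting error only. The size is imprecise: the log2 fold change was -4.59 without mutant 2, -3.09 without mutant 3 and -7.90 without mutant 1 and mutant 2, where the one mutant left has no count.

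Of 11 other genes of the family of small lipid-binding proteins, 4 had enough counts to be tested. Fabp5, the epidermal fatty acid binding protein, was the one that passed. It had 70.2, 71.9 and 64.9 CPM in mutant 1, 2 and 3, against 8.50, 6.11 and 7.07 CPM in control 1, 2 and 3 (log2 fold change 3.25, SE 0.12, adjusted p = 1.03e-07 by edgeR). Per kilobase its mean in mutants, 19.3 CPM per kb, was below the 87.7 CPM per kb of Fabp6. Some genes, Crabp1, Crabp2 and Rbp7 among them, are in both this list and that of retinoid handling.

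Mttp encodes the large subunit of the microsomal triglyceride transfer protein, which loads lipid onto apolipoprotein B. It had 2.28, 2.40 and 2.00 CPM in mutant 1, 2 and 3, against 10.04, 6.71 and 8.94 CPM in control 1, 2 and 3, with no overlap. It fell by 1.95 on the log2 scale (SE 0.19, adjusted p = 4.16e-05 by edgeR), a ratio of 0.259, and was called lower in all 13 alternative settings. Its acceptor Apob fell as well, by 1.6 on the log2 scale (SE 0.083, adjusted p = 8.09e-07 by edgeR). The log2 ratio of Mttp to Apob per kilobase was -3.94 ± 0.21 in mutants and -3.61 ± 0.24 in controls, a difference of -0.32 (exact permutation test, 2-sided, p = 0.2, adjusted p = 0.2 over 5 ratios). Since 0.1 is the smallest p of 3 libraries against 3, this test could not have passed at 0.05, whatever the values.

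Among 25 genes of lipid absorption and chylomicron assembly 22 were tested, of which 3 rose and 10 fell, with a median log2 fold change of -0.36. Gpat3, an acyltransferase of glycerolipid synthesis, fell to 11.9 ± 0.799 CPM in mutants, against 19.7 ± 0.344 CPM in controls. Slc27a4, a fatty acid transport protein, fell to 76.0 ± 0.532 CPM in mutants, against 105 ± 5.71 CPM in controls. Mogat2, the monoacylglycerol acyltransferase of enterocytes, fell to 1.99 ± 0.0983 CPM in mutants, against 4.29 ± 0.471 CPM in controls. The genes that rose were Apobec1, the editor of Apob messages, Dgat2, a diacylglycerol acyltransferase, and Npc1l1, the intestinal cholesterol importer. Npc1l1 averaged 7.04 ± 0.596 CPM in mutants and 3.10 ± 0.795 CPM in controls. Mogat2, Npc1l1, Apobec1 and Dgat2 are named with their values already known.

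Sis and Mgam encode sucrase-isomaltase and maltase-glucoamylase, related enzymes that finish starch and sucrose digestion at the brush border. Sis (minus strand of chromosome 3, 72888557 to 72967863) had 12.3, 12.2 and 14.9 CPM in mutant 1, 2 and 3, against 33.3, 29.9 and 34.6 CPM in control 1, 2 and 3. Mgam (plus strand of chromosome 6, 40628831 to 40769123) had 358, 361 and 348 CPM in mutant 1, 2 and 3, against 602, 620 and 616 CPM in control 1, 2 and 3. Neither gene's groups overlapped, and Mgam had the tightest libraries of the 10 genes, the highest being 1.04 times the lowest in mutants and 1.03 times in controls. Sis fell by 1.31 on the log2 scale (SE 0.10, adjusted p = 1.09e-05 by edgeR) and Mgam by 0.79 (SE 0.072, adjusted p = 2.47e-05 by edgeR), and both were called lower in all 13 alternative settings. The log2 ratio of Sis to Mgam per kilobase was -4.17, -4.20 and -3.85 in mutant 1, 2 and 3, against -3.48, -3.68 and -3.46 in control 1, 2 and 3. The groups did not overlap, with a difference of -0.53 (exact permutation test, 2-sided, p = 0.1, the smallest it can give, adjusted p = 0.125 over 5 ratios).

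The promoter windows of these relatives are shown because both genes fell, in the same form as above: the 250 bases before the RefSeq start, at chr3:72967864-72968113 on the minus strand for Sis and chr6:40628581-40628830 on the plus strand for Mgam.

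Sis: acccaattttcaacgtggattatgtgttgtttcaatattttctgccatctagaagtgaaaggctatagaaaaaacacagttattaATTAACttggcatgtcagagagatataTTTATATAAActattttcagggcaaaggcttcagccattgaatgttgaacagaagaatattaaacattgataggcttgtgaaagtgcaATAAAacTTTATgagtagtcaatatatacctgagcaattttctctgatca

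Mgam: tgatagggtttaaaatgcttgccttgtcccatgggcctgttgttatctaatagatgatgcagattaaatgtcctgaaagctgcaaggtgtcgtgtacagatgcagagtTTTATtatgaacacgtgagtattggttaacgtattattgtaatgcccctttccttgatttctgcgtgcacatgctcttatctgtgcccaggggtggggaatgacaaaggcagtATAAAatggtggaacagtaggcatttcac

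The CDX core was matched 4 times in the Sis window and 2 times in the Mgam window, and 37.3% of all windows held it at least once. It was not particular to genes that fell. Fabp1 held it 5 times, Fabp6, Rbp2 and Lct 2 times each, and Fabp2 and Alpi 1 time each. The HNF1 arm was matched in the Sis window, at position -165, and in that of Fabp1 among the 10 genes, beside 6.43% of all windows.

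Lct, which encodes lactase, and Treh, which encodes trehalase, were at the bottom of the range. Lct had 2, 7 and 9 counts in mutant 1, 2 and 3, against 89, 12 and 38 counts in control 1, 2 and 3. Scaled to depth the groups did not overlap, at 0.0773 to 0.280 CPM in mutants and 0.356 to 2.54 CPM in controls, and Lct fell (log2 fold change -2.73, SE 0.71, adjusted p = 0.0111 by edgeR). That value leans on control 1: without it the log2 fold change was -1.94 (adjusted p = 0.0464). The call was lost with limma-voom (adjusted p = 0.0545) and without mutant 1 and mutant 2 (0.0964). Treh had 0.657, 0.680 and 0.492 CPM in mutant 1, 2 and 3, against 0.856, 0.326 and 0.516 CPM in control 1, 2 and 3. The groups overlapped and the log2 difference was 0.09 (SE 0.40, adjusted p = 0.879 by edgeR), with a pooled count ratio of 1.04 and an exact 95% counting interval of 0.701 to 1.54.

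Of 9 listed genes of sugar uptake and fructose use 7 were tested, and all 7 were called lower in mutants, with a median log2 fold change of -0.72. The count was 6 with limma-voom, under the stricter filter, with the replicate number as a block and without mutant 2, mutant 3, control 1 or control 3, and 5 without mutant 1 and mutant 2. Khk, the fructose kinase, lay nearest the threshold (adjusted p = 0.0472 by edgeR), and its groups overlapped. Slc5a1, the sodium-coupled glucose transporter, averaged 137 ± 6.35 CPM in mutants and 190 ± 3.72 CPM in controls. Fbp1, a gluconeogenic phosphatase, fell to 0.562 ± 0.231 CPM in mutants, against 2.29 ± 0.248 CPM in controls.

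Alpi encodes intestinal alkaline phosphatase, which sits on the brush border and detoxifies bacterial lipopolysaccharide. It had 49.6, 50.2 and 66.4 CPM in mutant 1, 2 and 3, against 64.4, 56.5 and 63.3 CPM in control 1, 2 and 3. Mutant 3 was above every control and the other mutants were below every control, and the log2 difference was -0.15 (SE 0.12, adjusted p = 0.327 by edgeR). Without mutant 3 the gene passed as lower (-0.30, adjusted p = 0.0247). Its relative Akp3, the alkaline phosphatase of the duodenum, was low but higher in mutants, at 0.618, 0.640 and 1.07 CPM in mutant 1, 2 and 3, against 0.285, 0.0297 and 0.0968 CPM in control 1, 2 and 3 (adjusted p = 0.00662 by edgeR). Its controls were under the count filter, so that direction was built into its being tested.

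**Figure D4:**
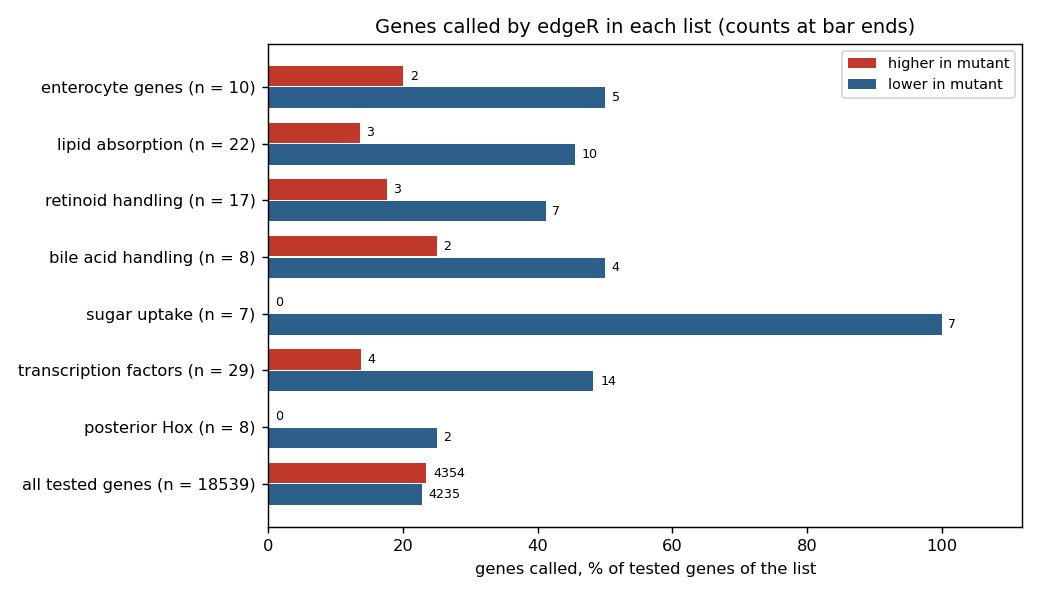
Share of the tested genes called higher (red) or lower (blue) in mutants by edgeR, with the number of genes at the bar ends. The lists drawn are those of enterocyte functions, transcription factors and Hox genes with more than 4 tested genes. Lists of cell type markers are not drawn. All tested genes stand at 23.5% higher and 22.8% lower, the 10 enterocyte genes at 20% and 50%, and the 7 tested genes of sugar uptake at 0% and 100%, a count that was 5 to 7 over the alternative settings. The 50% includes Fabp1 and Lct, which were tested through the control libraries alone.

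Transcription factors known for intestinal identity and enterocyte genes were mixed, with a majority of the changes downward: of 30 listed genes 29 were tested, 4 rose and 14 fell, with a median log2 fold change of -0.27. The list shares Nr1h4 and Isx with the lists above. Hnf4g, a nuclear receptor of enterocytes, had 14.1, 16.3 and 12.6 CPM in mutant 1, 2 and 3, against 46.2, 46.7 and 43.9 CPM in control 1, 2 and 3 (log2 fold change -1.68, SE 0.099, adjusted p = 1.80e-06 by edgeR). Its relative Hnf4a fell to 460 ± 29.0 CPM in mutants, against 723 ± 36.7 CPM in controls. Ppargc1a, a coactivator of mitochondrial genes, fell by 1.05 and Ppard, a fatty acid sensing receptor, by 0.78 on the log2 scale. The caudal factors did not pass, Cdx1 at 209 ± 3.97 CPM in mutants and 206 ± 1.17 CPM in controls, and Cdx2 at 201 ± 13.3 CPM in mutants and 183 ± 13.3 CPM in controls (adjusted p = 0.844 and 0.203 by edgeR). Hnf4a, Cdx1 and Cdx2 are likewise named with their values already known.

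Posterior Hox genes, which differ along the length of the colon, set mutant 1 apart. Their summed level was 44.8, 139 and 105 CPM in mutant 1, 2 and 3, against 133, 128 and 133 CPM in control 1, 2 and 3. Of 9 listed genes 8 were tested, none rose and 2 fell, Hoxd10 and Hoxd11, with log2 fold changes of -1.07 and -1.08 by edgeR. These 2 are 25% of the tested Hox genes, near the 22.8% called lower over all tested genes. The number that fell was 4 without mutant 2 and 1 without control 1. The part of this difference between the mutants in the values of the 10 genes was not tested.

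The control libraries also differed among themselves in these genes. Control 1 was the highest and control 2 the lowest for 7 of the 10 genes (Fabp1, Fabp2, Rbp2, Lct, Alpi, Mttp and Treh), an order seen in 20% of all tested genes. The reverse, with control 2 highest and control 1 lowest, was seen in Fabp6 and Mgam. Slc10a2 had that reverse order too, at 215, 434 and 330 CPM in control 1, 2 and 3. The 7 genes share these 3 libraries, so they are not separate observations of their order. That order was read from the same values, so the 20% is no test of it. The apolipoprotein genes Apoa1 and Apoa4, components of chylomicrons, were ordered like the 7 genes. Apoa1 had 2.98, 1.84 and 1.15 CPM in mutant 1, 2 and 3, against 11.8, 1.51 and 8.03 CPM in control 1, 2 and 3. It passed the test (log2 fold change -1.86, SE 0.62, adjusted p = 0.0320 by edgeR), although control 2 lay below 2 of the mutants. Apoa4 had 7.23, 3.00 and 2.82 CPM in mutant 1, 2 and 3, against 10.3, 2.14 and 7.20 CPM in control 1, 2 and 3 (adjusted p = 0.369 by edgeR). The defensin gene Defa24 was likewise detected in control 1 and control 3 and not in control 2. Its part in the falls of Fabp1 and Lct was not tested.

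**Figure D5:**
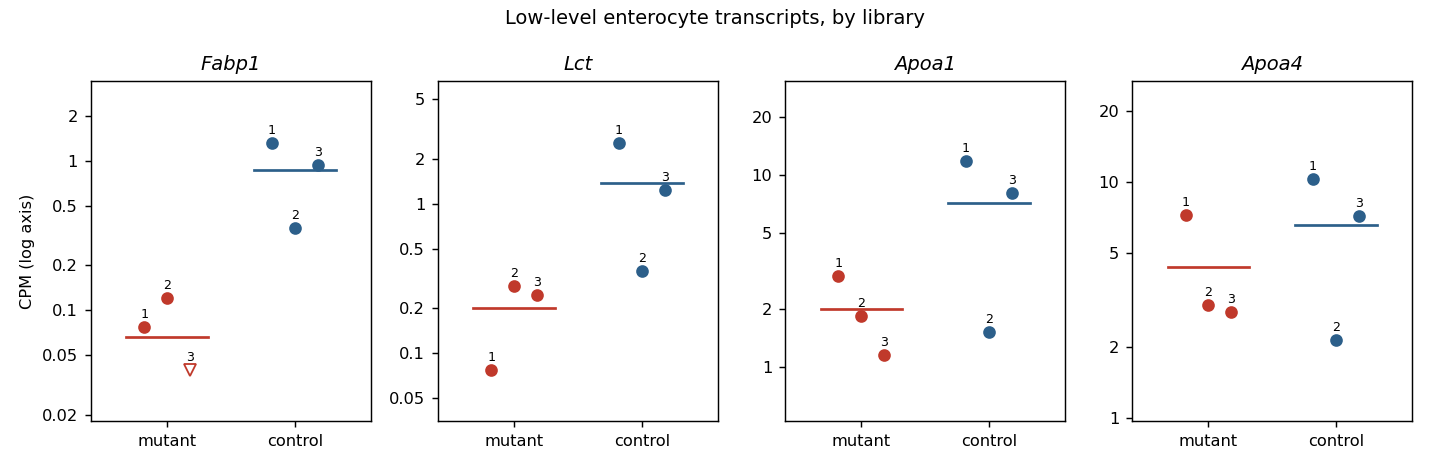
CPM of Fabp1, Lct, Apoa1 and Apoa4 in each library (log axis, scale differs between panels); points are libraries, numbered by replicate, lines are group means, and the open triangle is a library with no count, drawn at a fixed height. In each panel control 1 is the highest control and control 2 the lowest, with Lct at 2.54 CPM in control 1 and 0.356 CPM in control 2.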

How the data were processed

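The authors deposited raw counts for each gene and library. Per the submitters' processing notes, trimming used Trim Galore 0.6.5, and STAR 2.6.1d served as the aligner, with GRCm38 as the genome. Paired fragments were counted on the strand of read 1 with featureCounts 1.6.4 against GENCODE vM25, per the file headers. Fragments on several genes or with several alignments were not counted under those options, and no other gene's exons overlapped those of the 10 genes on the same strand. The deposited length column, in bases of exon, gave the levels per kilobase.

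The fits were run with edgeR 4.0.16 under R 4.3.3: filterByExpr (minimum count 10, minimum total 15), TMM scaling, and the quasi-likelihood F test, 2-sided, with genotype as the only term. CPM values use TMM-scaled library sizes of the tested genes. Benjamini-Hochberg adjustment ran over all 18539 tested genes. The alternatives were DESeq2 1.42.0 and its size factors, limma-voom (limma 3.58.1), a replicate block, other filters, and leaving out libraries.

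The 10 genes, the other gene lists and the tests were chosen with earlier results of these data known. The rule for named genes took the 10 genes, Mettl14, up to 3 genes of smallest p per list, and for the largest rise and the largest fall the 3 genes nearest in profile (log2 of CPM plus 0.1, mean of at least 5 CPM). Beyond it, Slc10a2, Slc51b, Fgf15, Apoa1, Apoa4, Defa21, Defa22, Defa24, Lyz1, Khk, Dnah8, Xist and Ddx3y were chosen after their values were seen, as were the 5 ratios. So was Fcgr1. The submitters describe 3 pairs of mice without tying each library to a mouse or a pair, so p-values measure only the spread between these libraries. Libraries of 1 group differed by more than counting noise (chi-square per gene 13.2 to 90.4). Promoters are from RefSeq, and all 10 genes matched. Some genes that the rule names are not reported here.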

Additional observations from a re-analysis of the deposited data

How the results depend on the processing

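Of the 10 genes, Fabp6, Mttp, Sis and Mgam kept their direction and call in all 13 alternative settings, and Fabp1 in the 12 that tested it. The stricter filter (at least 1 CPM in 3 libraries) did not test Fabp1, Lct and Treh, so that 3 genes were called lower there. Leaving out single libraries gave 1 to 2 genes called higher and 5 to 6 called lower. Directions turned for genes that did not pass: Fabp2 without control 2 (-0.13, the single-library omissions reaching 0.33), Treh without mutant 2 (-0.0023), without control 2 (-0.20; omissions reaching 0.51) and without mutant 1 and mutant 2 (-0.23), and Alpi without mutant 1 and mutant 2 (0.085). The cause was not tested. Over all genes no count moved by more than 1.5 times.

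The submitters describe 3 mutant and control pairs without naming the libraries of each, and libraries with the same number did not deviate together. Deviations from the group means of mutants and controls with the same number correlated at -0.122, -0.0703 and -0.141, and mutant 1 correlated best with control 3 (0.126). With the replicate number as a block, 3789 genes were higher and 3614 lower, against 4354 and 4235 without it, and the calls of the 10 genes stayed at 2 higher and 5 lower. The retinoid genes that fell were 4 under that block.

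In the other lists, single-library omissions gave 0 to 2 bile acid genes higher, 4 to 7 retinoid genes lower, 0 to 1 lipid-binding family genes lower, 1 to 2 alkaline phosphatase genes higher and 1 to 4 posterior Hox genes lower. Under the stricter filter 1 bile acid gene and 0 alkaline phosphatase genes were higher. With no filter on low counts 6 posterior Hox genes and 1 lipid-binding family gene were lower, as was 1 of that family with limma-voom and without mutant 1 and mutant 2. Without mutant 1 and mutant 2, 5 sugar uptake genes and 7 lipid absorption genes were lower, 4 retinoid genes were higher, 3 posterior Hox genes were lower, and 7 macrophage and 0 T cell markers were higher. Depth limits Fabp1, Lct and Treh, whose counts per library were between 0 and 89.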

Other observations

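Some markers of other cells, read in the same fit, differed between genotypes, and their part in the values of the 10 genes was not tested. Of all tested genes 46.3% were called, 23.5% as higher and 22.8% as lower. The share called was smaller for T cell (28.6%), endothelial (40%) and erythrocyte markers (20%). All 4 tested neutrophil markers of 6 were called higher, 3 of them (S100a8, S100a9 and Csf3r) tested through the mutant libraries alone. The list summed to 12.8 to 39.6 CPM in mutants and 8.96 to 13.1 CPM in controls, most of it Ly6g. Ly6g had 11.1, 34.3 and 27.9 CPM in mutant 1, 2 and 3, against 8.22, 12.9 and 10.3 CPM in control 1, 2 and 3. Its groups overlapped. Of 6 fibroblast markers 4 fell and none rose, with sums of 84.6 to 102 CPM in mutants and 194 to 226 CPM in controls. Of 5 smooth muscle markers 4 fell, with sums of 49.5 to 51.8 CPM in mutants and 59.5 to 69.3 CPM in controls. Of 7 T cell markers 1 rose and 1 fell, with sums of 6.73 to 9.88 CPM in mutants and 8.25 to 10.6 CPM in controls. Cd4, the T cell marker that rose, was likewise tested through the mutant libraries alone. Of 5 endothelial markers 1 rose and 1 fell, with sums of 12.3 to 16.0 CPM in mutants and 10.4 to 10.6 CPM in controls. The tested B cell marker of 6 did not pass, with sums of 1.16 to 2.04 CPM in mutants and 0.71 to 1.22 CPM in controls. Of 5 erythrocyte markers 1 rose, with sums of 7.60 to 29.4 CPM in mutants and 6.32 to 10.8 CPM in controls. Of 8 epithelial markers 5 fell and 1 rose, and of 8 colonocyte markers 4 fell and none rose.

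Genes of the short lists that did not pass had these levels. Rbp7 averaged 0.112 ± 0.148 CPM in mutants and 0.417 ± 0.134 CPM in controls (adjusted p = 0.0545 by edgeR). Fabp4 averaged 0.339 ± 0.137 CPM in mutants and 0.297 ± 0.103 CPM in controls (adjusted p = 0.731 by edgeR). Alpl averaged 0.771 ± 0.286 CPM in mutants and 0.383 ± 0.0635 CPM in controls (adjusted p = 0.051 by edgeR). Hoxa11 averaged 1.13 ± 0.49 CPM in mutants and 1.94 ± 0.56 CPM in controls (adjusted p = 0.108 by edgeR).

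The genes nearest in profile to Fabp1 were Selenbp2, Ces1g and Reg4, at a root mean square distance of 0.259, 0.350 and 0.381 on the log2 scale, with 0.1 CPM added, which compresses the profile of a gene as low as Fabp1. Selenbp2 had 2.59, 3.96 and 2.21 CPM in mutant 1, 2 and 3, against 24.2, 10.8 and 23.1 CPM in control 1, 2 and 3. Reg4 had 321, 216 and 131 CPM in mutant 1, 2 and 3, against 1396, 654 and 947 CPM in control 1, 2 and 3. In both, control 2 was the lowest control, as in Fabp1. They were chosen for nearness to Fabp1 over the same libraries, so this adds nothing to that order.

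Further ratios within a library, per kilobase and on the log2 scale, separated the groups. Fabp6 to Fabp2 was -2.62 ± 0.49 in mutants and -6.81 ± 0.82 in controls, a difference of 4.19. Rbp2 to Lrat was 5.81 ± 0.31 in mutants and 3.37 ± 0.10 in controls, a difference of 2.44. For each the exact permutation test, 2-sided with 3 libraries against 3, gave p = 0.1, the smallest it can give (adjusted p = 0.125 over 5 ratios).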
